A study of Homo sapiens with 90 samples.

Results

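The genes described here make cholesterol and fatty acids. The list, chosen by symbol, holds 29 genes: 6 enzymes of the mevalonate pathway, 11 enzymes that turn its product into cholesterol, 4 genes of sterol sensing and transport, and 8 genes of fatty acid synthesis and desaturation. This list was chosen with earlier results of these data known. Of the 29, 28 were matched to 1 of the 53893 gene IDs of the deposited table, and ACACA was not analysed here. The samples are RNA-seq libraries of 6 established human cancer cell lines, each in 5 arms of 3 libraries, 90 libraries in all. Each line had its own kinase inhibitor. Among the lung lines, erlotinib (1 uM) blocks EGFR in PC9, crizotinib (250 nM) blocks ALK in H3122, and GSK1120212, which is trametinib, blocks MEK in A549 (200 nM). Melanoma line A375 was given vemurafenib, a blocker of BRAF (1 uM). The gastric line N87 was given lapatinib, a blocker of ERBB2 and EGFR (100 nM), and the bladder line RT112 was given BGJ398, a blocker of FGFRs (1 uM). These drugs are called the targeted drug below.

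The arms were 0.1% DMSO for 48 h, the targeted drug for 48 h, THZ1 for 48 h, the targeted drug with THZ1 for 48 h (the combination), and the targeted drug for 7 days. THZ1 binds the transcription kinase CDK7 covalently, and CDK12 and CDK13 too. Its dose was 150 nM in A549, 100 nM in RT112 and PC9, 50 nM in H3122 and A375, and 25 nM in N87, so the lines differed in both drug and dose. All cells grew in medium with 10% FBS, A375 in DMEM and the other lines in RPMI, and serum carries lipoproteins. The vehicle libraries are of 48 h only, so drug and time in culture cannot be told apart at 7 days. The labels do not say that the 3 libraries of a group came from separate cultures, and p-values within a line then measure the spread between these libraries only.

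Depth was 5.64 to 14.36 M expected counts a library (median 11 M), and each of the 90 libraries was nearest to a library of its own group. Replicate 1 of RT112 in DMSO and under BGJ398 at 48 h and 7 days, and replicate 1 of H3122 at 7 days, lay away from their groups. Replicate 1 of the RT112 combination did not, with a mean correlation of 0.9958 with its group against 0.996 and 0.9958 for the others. It was left out with them all the same. Without all of these libraries the across-line count given below for the targeted drug was 14 at 48 h (HSD17B7 was lost) and 19 at 7 days, where all libraries gave 15 and 19. Of the 11822 genes tested in that fit, 4382 were called at 48 h and 5114 at 7 days in either direction. One A375 library of vemurafenib at 48 h is labelled as lung tissue and was nearest to its own group. The labelled tissue was checked against 6 markers a tissue. RT112 had 5 of 6 urothelial markers at 1 CPM (counts scaled to library size) or more in DMSO, H3122 had 3 of 6 lung markers, A375 had 2 of 6 melanocyte markers (MITF and SOX10, with PMEL, MLANA, TYR and DCT under 1 CPM), N87 had 1 of 6 gastric markers and A549 and PC9 had 0 of 6 lung markers. Every line had 2 of 6 melanocyte markers, and A375 stood out by its level of SOX10 (953.2 CPM). Urothelial markers numbered 4 of 6 in N87 and 3 of 6 in A549 and PC9, more than those of the labelled tissue. RT112 had 3 of 6 gastric markers. In A375, N87, A549 and PC9 the count of markers thus does not show the labelled tissue. Levels are given in CPM, a share of each library: the files hold no spike-in, so fewer cells and less RNA per cell cannot be told apart, and neither can be told from a change of the remaining transcripts.

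Cholesterol is built from acetyl-CoA. The mevalonate enzymes (HMGCS1, MVK, PMVK, MVD, IDI1 and FDPS) make farnesyl pyrophosphate, FDFT1 and SQLE make squalene and its epoxide, LSS closes the ring, and CYP51A1, TM7SF2, MSMO1, NSDHL, HSD17B7, EBP, SC5D and DHCR7 trim it to cholesterol. ACLY and ACSS2 supply acetyl-CoA, FASN makes palmitate, ELOVL6 lengthens it, SCD puts in its first double bond, and FADS1 and FADS2 desaturate polyunsaturated fatty acids. Most of these genes are known targets of the SREBP transcription factors, made from SREBF1 and SREBF2. When sterols are plentiful INSIG1 holds the SREBP precursors in the endoplasmic reticulum, and INSIG1 is itself an SREBP target. STARD4 carries sterols between membranes.

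SREBPs bind sterol regulatory elements, usually next to boxes for NF-Y and Sp1. RefSeq promoter windows (GRCh38.p14, 250 bases before to 50 after a start) were found for 26 of the 29 genes, 36 windows in all, and were searched on both strands. The element written TCACNCCAC was in 1 window, that of SREBF2 (2.78% of the 36, against 1.13% of all 35116 windows), and the looser TCACNCNAC in 5 (13.9% against 2.55%). CCAAT, the NF-Y box, was in 69.4% of the members' windows and in 34.6% of all windows. GGGCGG, an Sp1 box, was in 88.9% and 45.0%. The 2 sterol patterns overlap, since the first is a case of the second. The 5 stretches with the looser element are shown as matches to that pattern, and only that of SREBF2 also matches the stricter one. The stretch of SCD is shown because SCD had the greatest change below. Capitals mark the looser element and CCAAT boxes on either strand. All 6 genes are on the plus strand and only bases before the start are printed. The stretches are chr22:41832942-41833060 (SREBF2), chr20:34876362-34876462 (ACSS2), chr1:155308696-155308814 (FDPS), chr1:162790574-162790692 (HSD17B7), chr11:61815953-61816071 (FADS2) and chr10:100346983-100347131 (SCD).
SREBF2: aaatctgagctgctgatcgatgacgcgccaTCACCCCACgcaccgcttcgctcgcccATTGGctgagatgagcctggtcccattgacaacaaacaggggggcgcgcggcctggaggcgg
ACSS2: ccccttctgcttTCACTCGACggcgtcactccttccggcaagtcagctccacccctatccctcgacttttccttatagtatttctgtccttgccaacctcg
FDPS: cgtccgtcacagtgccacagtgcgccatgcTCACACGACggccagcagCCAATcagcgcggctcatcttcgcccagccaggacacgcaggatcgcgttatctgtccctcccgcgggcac
HSD17B7: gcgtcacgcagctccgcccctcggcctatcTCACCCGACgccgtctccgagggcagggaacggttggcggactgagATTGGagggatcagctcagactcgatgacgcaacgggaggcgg
FADS2: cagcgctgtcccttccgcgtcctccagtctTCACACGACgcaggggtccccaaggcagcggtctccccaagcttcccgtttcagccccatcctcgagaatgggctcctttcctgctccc
SCD: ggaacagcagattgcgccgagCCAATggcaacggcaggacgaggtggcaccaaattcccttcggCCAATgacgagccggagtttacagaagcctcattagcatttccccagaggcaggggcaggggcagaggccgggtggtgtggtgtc
In SREBF2, FDPS and HSD17B7 a CCAAT box (ATTGG on the printed strand of SREBF2 and HSD17B7) lies within the printed stretch downstream of the element. The ACSS2 and FADS2 stretches hold none. SCD holds 2 such boxes and no match to either sterol pattern in this window. A match is a description of letters and not evidence of binding.

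In DMSO FASN and SCD were the most abundant members per length in 4 of the 6 lines, and ACLY came between or before them in A549 and N87. FASN and SCD were among the first 3 of the 28 in CPM per kilobase in every line. SCD in DMSO was 410.5 ± 5.81 CPM per kilobase in RT112 (SD, n = 3) and 97.1 ± 2.08 in H3122, the highest and lowest of the 6 lines. FADS1 and FADS2 varied most between lines. FADS2 was lowest in RT112, at 2.22, 1.79 and 1.32 CPM in its 3 DMSO libraries, and highest in PC9, at 706, 709.7 and 662 CPM. FADS1 likewise was lowest in RT112, where its lowest DMSO library held 6.11 CPM. In N87 FADS1 was at 11.5, 13.7 and 14.9 CPM, and it was over 100 CPM in every DMSO library of the 4 lines A375, A549, H3122 and PC9. The summed level of the 17 mevalonate and sterol enzymes in DMSO ran from 840.0 ± 9.96 CPM in A375 to 2629 ± 93.2 in PC9 (SD, n = 3).

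The first comparison asks what the targeted drug did to these genes in 48 h. The 7 fatty acid genes had the lowest median change of the 4 roles, with a log2 change of -1.16 across lines, against -0.65 for the 4 sensing genes, -0.53 for the 6 mevalonate and -0.43 for the 11 sterol enzymes. Their summed level at 48 h was 21.7% of DMSO in PC9, 37.7% in N87, 41.8% in A375, 42.0% in H3122, 57.4% in RT112 and 82.0% in A549. For the 17 mevalonate and sterol enzymes it was 34.8%, 42.4%, 65.2%, 80.2% and 78.6% in the same order of lines, and 168% in A549, where the sum was above DMSO.

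**Figure D1:**
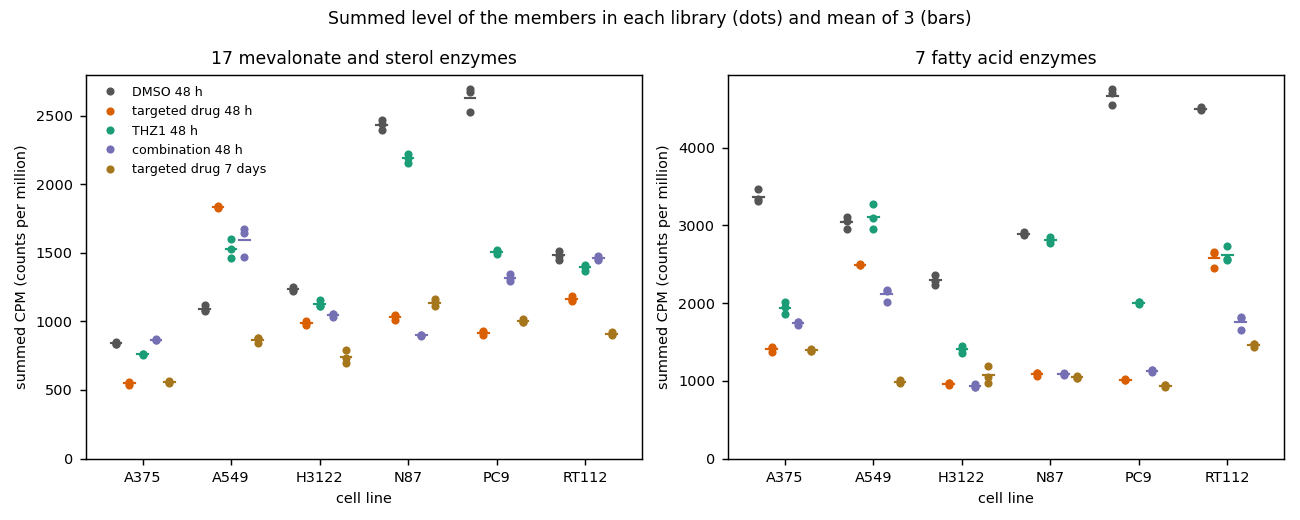
Summed CPM of the 17 mevalonate and sterol enzymes (left) and of the 7 fatty acid enzymes (right) in each library (dots; bars are the mean of 3), by cell line and arm. In A549 the left-hand sum was higher at 48 h of the targeted drug than in DMSO, at 1824, 1840.5 and 1833 CPM against 1081, 1119 and 1073, while in the other 5 lines it was lower.

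For the test across lines the 3 libraries of each group were added up, lines served as replicates, and a gene was called at an adjusted p under 0.05 (edgeR quasi-likelihood test, Benjamini-Hochberg over the 11875 genes tested). The 28 members passed the filter on low values, which asks for 1 CPM in at least 3 libraries of every line whatever the arm. Of the 28, 15 were called lower and 0 higher at 48 h, against 18.5 and 18.6% of all genes tested. The members' median log2 change was -0.61 and that of all genes 0.05. By role, 6 of 7 fatty acid genes, 5 of 11 sterol enzymes, 2 of 6 mevalonate enzymes and 2 of 4 sensing genes were called lower. One gene, TM7SF2, a sterol reductase, had an unadjusted p under 0.05 in the other direction (log2 change 0.62 ± 0.27, SE, adjusted p = 0.0761) and was higher in 5 of 6 lines.

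**Figure D2:**
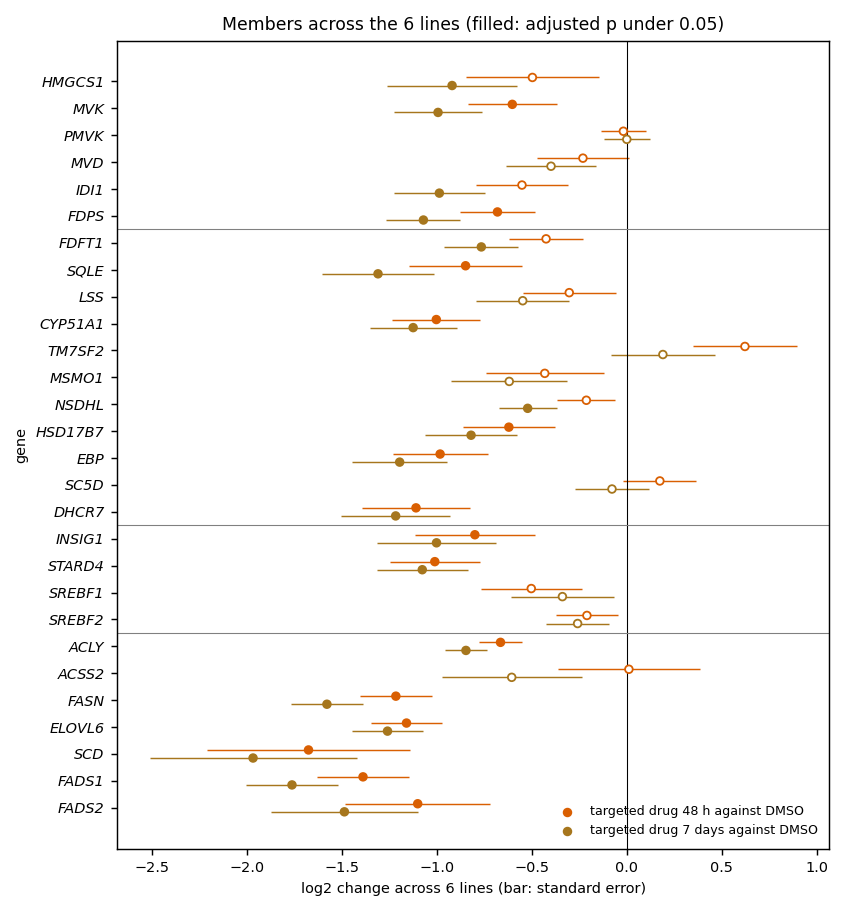
Log2 change across the 6 lines (x axis, bars are standard errors) for each of the 28 members (y axis, by role from the mevalonate enzymes at the top to the fatty acid enzymes at the bottom) at 48 h and at 7 days of the targeted drug; filled points passed an adjusted p of 0.05. SCD lies furthest to the left at both times, at -1.68 and -1.97, and TM7SF2, SC5D, PMVK and ACSS2 lie near or above 0 at 48 h.

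SCD, which makes monounsaturated fatty acids, had the greatest change of the members across lines. Its DMSO libraries held 1294, 1272 and 1207 CPM in PC9 and those of erlotinib at 48 h 114, 124 and 131. In N87 they held 673, 690.3 and 712 CPM, and 93.3, 82.6 and 86.1 under lapatinib. In H3122 they held 519, 511 and 533 CPM, and 69.5, 68.7 and 60.1 under crizotinib. None of these groups overlapped, and the fitted level was 9.33-fold lower in PC9, 8.48-fold in N87 and 8.43-fold in H3122. The share of all genes whose groups do not overlap was not counted. In PC9 32.8% of all genes tested were called lower and 35.2% higher. Lack of overlap, here and below, thus describes a member's libraries and does not set the member apart. In A375 SCD went from 663, 654 and 704 to 305, 339.9 and 322 CPM, and in RT112 from 2165, 2223 and 2214 to 1168, 1319 and 1345, again without overlap. In A549 the groups overlapped, at 1129, 1136 and 1179 CPM in DMSO and 1167, 1134 and 1151 under GSK1120212. Across lines SCD fell by 1.68 ± 0.54 on the log2 scale (SE, 6 lines, adjusted p = 0.0175); without N87 the change was -1.42 (adjusted p = 0.0516) and without PC9 -1.36 (adjusted p = 0.0741), so neither fit passed the threshold.

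FASN, the fatty acid synthase, had a steadier change. It was at 1983, 1871 and 1812 CPM in A375 in DMSO and at 632, 659.8 and 654 under vemurafenib, and at 2040.0, 1950.0 and 1964 in RT112 and 1056, 1082 and 1086 under BGJ398. The smallest difference was in A549, at 591, 635 and 654 CPM against 491, 505 and 505, where the groups still did not overlap. Across lines FASN fell by 1.22 ± 0.19 (log2, SE, adjusted p = 0.000138), lower in 6 of 6 lines. FADS1, the delta-5 desaturase, was lower in 6 of 6 lines too, with a log2 change of -1.39 ± 0.24 (adjusted p = 0.000274). In PC9 FADS1 was at 312, 309.9 and 284 CPM in DMSO and 60.01, 62.9 and 62.6 under erlotinib. In RT112, where it had its greatest change (-2.49 ± 0.17), it was at 6.32, 6.11 and 6.97 and 1.26, 1.17 and 1.42 CPM, levels near the filter. In N87 ELOVL6, the elongase, was at 105, 112 and 103 CPM in DMSO and 33.4, 37.9 and 36.96 under lapatinib, and in H3122, where its change was smallest, at 19.7, 18.7 and 20.1 and 12.1, 12.3 and 14.5. Across lines ELOVL6 changed by -1.16 ± 0.19, ACLY, which makes acetyl-CoA from citrate, by -0.67 ± 0.11 and FADS2, the delta-6 desaturase, by -1.10 ± 0.38 (log2, SE; adjusted p = 0.000176, 0.000221 and 0.0275). ACLY had the smallest SE of the fatty acid genes. Its levels in N87 were 787, 790.2 and 796 CPM in DMSO and 393, 379 and 381 under lapatinib, and in H3122 202, 207 and 208 and 167, 168 and 165 under crizotinib, again without overlap. FADS2 in PC9 was at 706, 709.7 and 662 CPM and 160.3, 164 and 172 under erlotinib, while in RT112 the groups overlapped, at 2.22, 1.79 and 1.32 and 1.62, 1.95 and 2.06 CPM. ACSS2, which makes acetyl-CoA from acetate, was the fatty acid gene that was not called (0.01 ± 0.37). Its libraries in H3122 rose from 29.9, 27.8 and 26.7 CPM to 113, 116 and 117 under crizotinib (log2 change 1.94 ± 0.11), and it was called lower in A375, N87 and PC9.

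Of the sterol enzymes, those called lower were DHCR7, the last step (-1.11 ± 0.29, adjusted p = 0.00456), CYP51A1, the first demethylation (-1.004 ± 0.23, 0.00209), the isomerase EBP (-0.98 ± 0.25, 0.00416), the epoxidase SQLE (-0.85 ± 0.30, 0.0278) and HSD17B7 (-0.62 ± 0.24, 0.0471). EBP was the sterol enzyme called lower in every line. In N87 its libraries held 64.1, 63.9 and 60.4 CPM in DMSO and 16.5, 14.03 and 14.6 under lapatinib, and in A549 54.03, 61.4 and 55.8 and 48.2, 51.4 and 47.7. CYP51A1 in PC9 was at 171, 163 and 159 CPM in DMSO and 35.4, 34.4 and 37.1 under erlotinib, and in H3122 at 69.2, 71.96 and 68.7 and 49.5, 43.8 and 44.7 under crizotinib. SQLE in PC9 was at 138, 138 and 125 and 28.8, 29.5 and 27.7 CPM, and in RT112 at 123, 114 and 112 and 55.9, 57.6 and 56.9. In each of these pairs every treated library was below every DMSO library. DHCR7 in A375 was at 90.5, 93.6 and 94.2 CPM in DMSO and 31.4, 27.2 and 29.9 under vemurafenib, and in PC9 at 498, 487 and 451 and 132, 127 and 128, without overlap. HSD17B7 was a low gene, at 20.2, 20.1 and 18.7 CPM in PC9 in DMSO and 3.6, 3.42 and 3.37 under erlotinib. HSD17B7 and FDPS have pseudogenes of near-identical sequence, between which the authors' counting can split reads. Of the mevalonate enzymes FDPS (-0.68 ± 0.20, 0.00886) and MVK (-0.60 ± 0.23, 0.0449) were called lower. PMVK, the phosphomevalonate kinase after MVK, was at -0.02 ± 0.12 and lay within 1 SE of 0. In its own lines it was called higher in H3122, from 13.2, 14.97 and 14.9 CPM to 21, 20.9 and 21.03, lower in A549, from 34.2, 34.7 and 32.1 to 21.8, 23.5 and 19.2, and in neither direction in the other 4. SC5D, a desaturase of the sterol ring, was at 0.17 ± 0.19 across lines. It rose in RT112 from 22.1, 23.7 and 21.3 to 36.9, 45.5 and 44.1 CPM and fell in PC9 from 41.3, 43.1 and 34.7 to 19.2, 20.3 and 23.8. MVD, which makes isopentenyl pyrophosphate, rose in A375 from 26.2, 23.4 and 20.3 to 28.03, 30.2 and 33.5 CPM while 24 of the 28 members fell there, and fell in PC9 from 166, 174 and 157 to 55.5, 48.9 and 52.1. IDI1, the isomerase of that product, fell in PC9 from 110.4, 109.9 and 104 to 30.6, 34.4 and 32.8 CPM. In RT112 its groups overlapped, at 78.7, 58.4 and 56.8 and 85.5, 67.3 and 56.2 CPM, where the first value of each group is replicate 1, which stood apart.

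Of the sensing genes STARD4 (-1.01 ± 0.24, adjusted p = 0.00246) and INSIG1 (-0.80 ± 0.32, 0.0491) were called lower. STARD4 had the greatest change of the members in A375 (-1.85 ± 0.14), from 26.4, 24.1 and 20.7 CPM in DMSO to 6.38, 6.99 and 6.31 under vemurafenib. In DMSO STARD4 was lowest in RT112, where its lowest library held 2.71 CPM, so its call there rests on levels near the filter. INSIG1 in PC9 went from 153, 149 and 135 to 27.3, 30.4 and 28.01 CPM, and in A549 it rose from 36.2, 40.8 and 38.9 to 57.8, 59.1 and 57.1. In RT112 INSIG1 was not called, with 81.95, 57.2 and 58.96 CPM in DMSO and 97.4, 64.2 and 67.6 under BGJ398, overlapping groups in which replicate 1 is the highest; in replicates 1 and 2, the numbers both groups share, the treated library was the higher. The SREBP genes themselves were not called, at -0.50 ± 0.27 for SREBF1 and -0.21 ± 0.17 for SREBF2 (adjusted p = 0.139 and 0.325). MVK, HSD17B7 and INSIG1 lie just inside the threshold, and IDI1 (adjusted p = 0.0745) and FDFT1 (0.0892) just outside it. The count of 15 was 9 without N87, 9 without PC9 and 20 without A549. In either direction these fits called 3526 of 12102, 3626 of 12024 and 3741 of 12207 genes. The fit of all lines called 2193 lower and 2212 higher of 11875. The calls lost when 1 line was left out were those of SQLE, MVK and HSD17B7 (without A375, N87, PC9 or RT112), FADS2 and INSIG1 (without A375, H3122, N87 or PC9) and SCD. The other 9 members were called without any 1 of the lines: FDPS, CYP51A1, EBP, DHCR7, STARD4, ACLY, FASN, ELOVL6 and FADS1.

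The lines differed, and the size of the change differed between them for 28 of 28 members, where 93.7% of all genes did, so such a difference was the rule for all genes. Within a line the 15 libraries were fitted together, and calls there rest on 3 libraries against 3. In PC9, 26 of 28 members were called lower and 1 higher under erlotinib, where 32.8 and 35.2% of all genes tested were. In N87 the counts were 26 and 1 (all genes 35.4 and 35.5%), and in A375 24 and 2 (32.9 and 34.3%). In H3122 they were 19 and 3 (24.1 and 22%), and in RT112 17 and 2 (35.1 and 34.2%). In A549 the order was turned, with 9 called lower and 18 higher under GSK1120212 (37.4 and 36.8%). The members called lower in all 6 lines were 6 of 28, EBP, STARD4, ACLY, FASN, ELOVL6 and FADS1, where 8.16% of the 12036 genes tested in every line were.

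**Figure D3:**
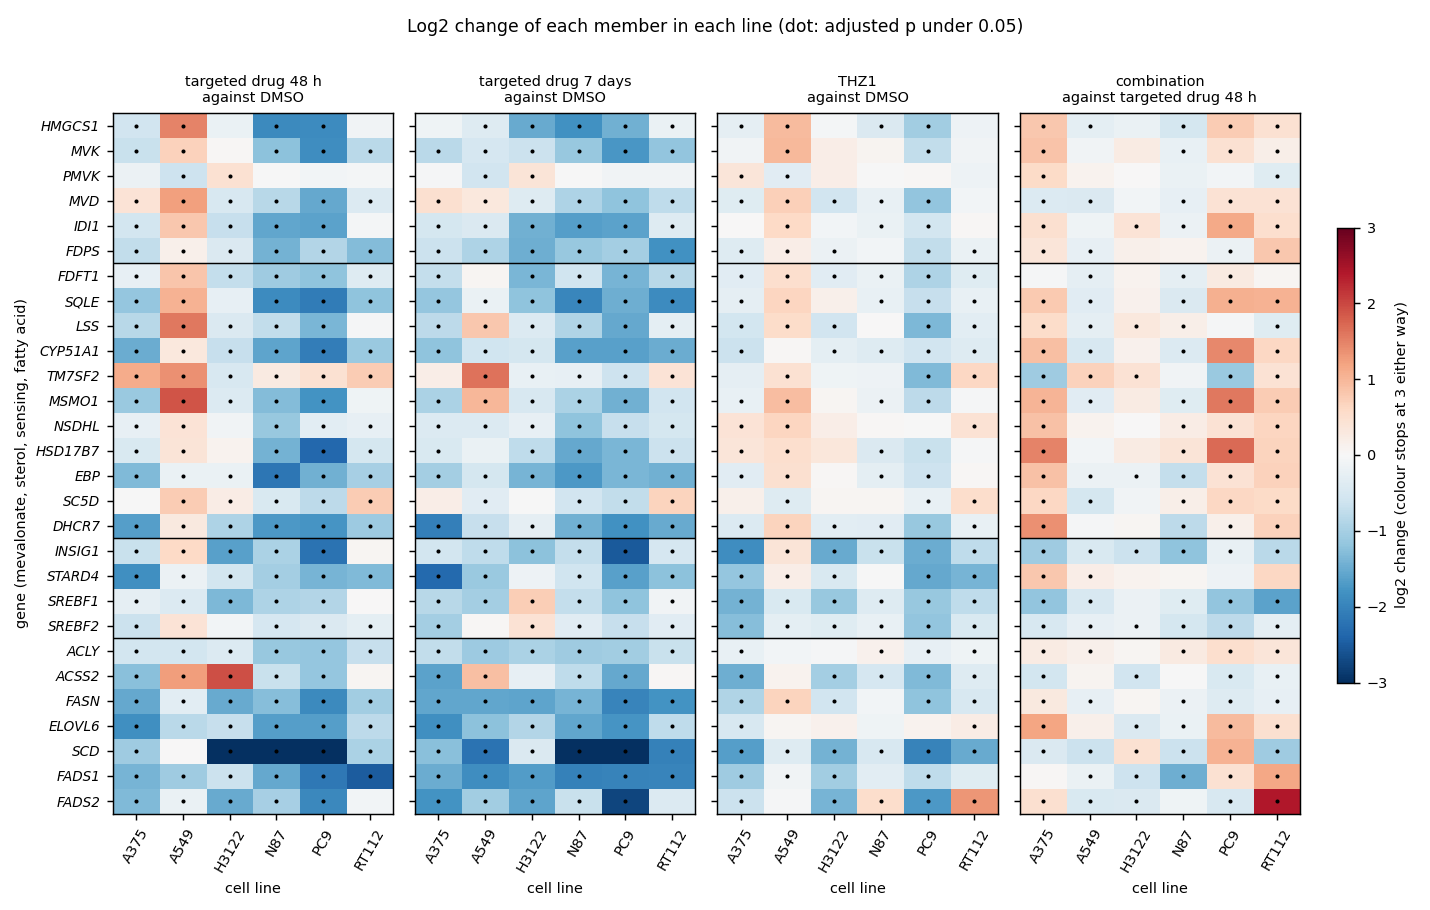
Log2 change of each of the 28 members (rows, by role) in each line (columns) for 4 comparisons; blue is lower, red higher, the colour stops at 3 either way, and a dot marks an adjusted p under 0.05. In the leftmost panel the A549 column is red for most mevalonate and sterol enzymes, such as MSMO1 at 1.90, and blue for FASN and FADS1, at -0.31 and -1.06.

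In A549 the 2 branches of the pathway moved apart at 48 h. Of the 17 mevalonate and sterol enzymes, 15 rose and 2, PMVK and EBP, fell. MSMO1, a sterol methyl oxidase, went from 30.9, 39.04 and 32.7 CPM in DMSO to 125, 124 and 126 under GSK1120212, a log2 change of 1.90 ± 0.08. LSS, the cyclase, went from 42.3, 39.2 and 40.8 to 118, 120.5 and 125 (1.59 ± 0.08). HMGCS1, which makes HMG-CoA, went from 127, 128 and 119 to 342, 346 and 352 (1.49 ± 0.05), and SQLE from 62.7, 69.5 and 66.9 to 136, 141 and 130.5 (1.05 ± 0.07). None of these groups overlapped. The same 4 genes were called lower in both N87 and PC9: HMGCS1 went from 257, 259.9 and 253 to 68.8, 77.1 and 72.2 CPM in N87, and SQLE from 341, 343 and 334 to 96.4, 103 and 93.7. In all, 17 of the 28 members were called higher in A549 and lower in both N87 and PC9, as were 3.49% of the 12036 genes tested in every line. These are the lines where the most members were called higher (A549) and lower (N87 and PC9). The pattern follows the members' own values, so the 2 shares are a description and not a test. Of the fatty acid genes in A549, ACLY (-0.56), FASN (-0.31), ELOVL6 (-0.80), FADS1 (-1.06) and FADS2 (-0.19) were called lower, ACSS2 was called higher (1.25) and SCD was not called (0.02). SREBF2 rose (0.40) and SREBF1 fell (-0.40).

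**Figure D4:**
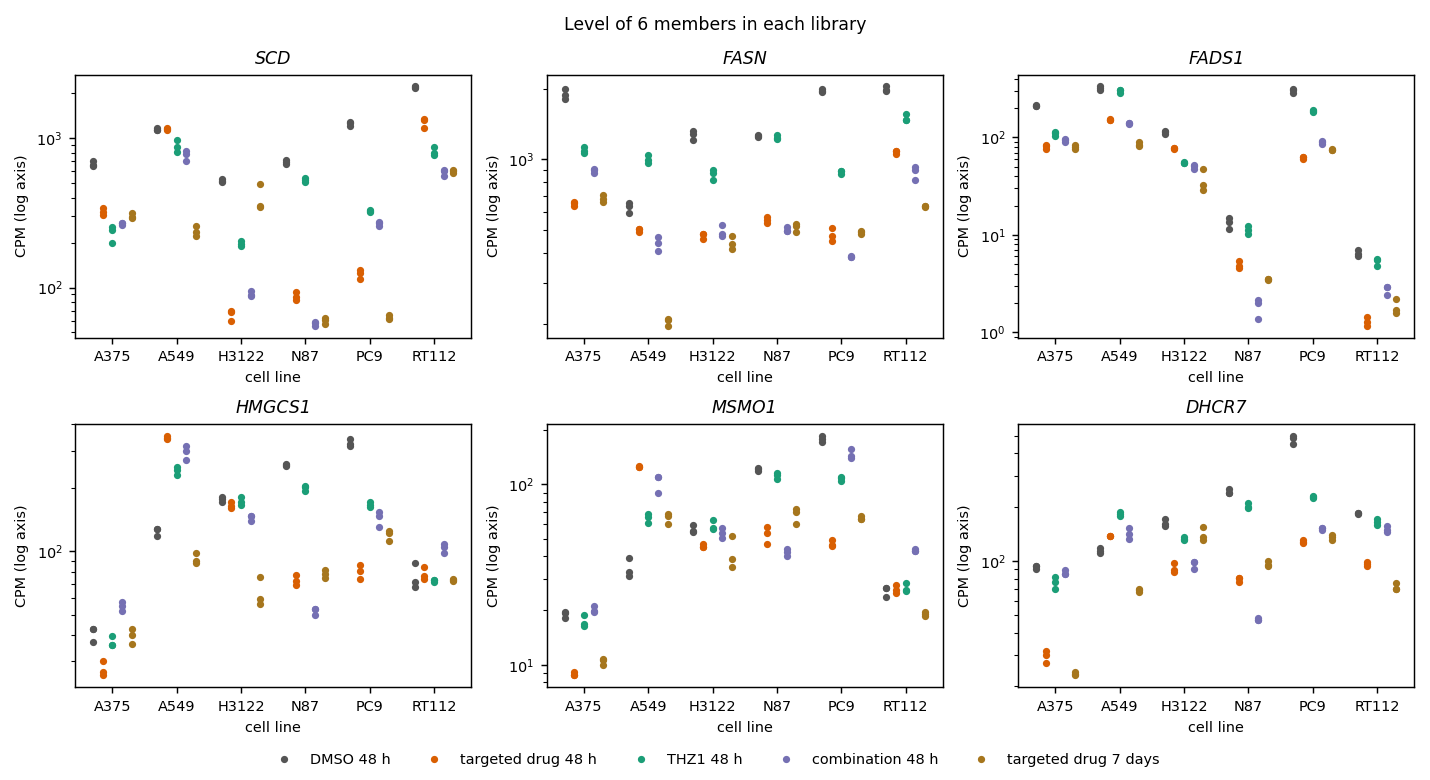
CPM (log axis) of SCD, FASN, FADS1, HMGCS1, MSMO1 and DHCR7 in each library, by cell line and arm. For SCD the A549 libraries of DMSO and of the targeted drug at 48 h overlap, at 1129, 1136 and 1179 and 1167, 1134 and 1151 CPM, and at 7 days they are at 221, 237 and 260.1.

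The arm of 7 days asks whether the change lasted under continued drug. The fatty acid sum was below DMSO in every line, and in A549 the mevalonate and sterol sum, which had been above DMSO at 48 h, was below it. The A549 libraries of 7 days were shallower, at 6.38, 6.2 and 6.24 M counts. Those of DMSO held 12.94, 10.22 and 11.43 M, and those of GSK1120212 at 48 h 11.86, 11.14 and 9.88 M. At 7 days the 7 fatty acid genes summed to 20.1% of DMSO in PC9, 32.5% in RT112, 32.5% in A549, 36.1% in N87, 41.4% in A375 and 46.6% in H3122. That of the 17 mevalonate and sterol enzymes in A549 was 79.3% of DMSO, and in the other lines it ran from 38.1% in PC9 to 66.4% in A375. Across lines 19 of 28 members were called lower and 0 higher, against 20.3 and 22.9% of all genes tested, with a median of -0.95 for the members. This comparison uses the same DMSO libraries as that at 48 h, so the 2 are not independent.

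FADS1 changed by -1.76 ± 0.24 at 7 days and -1.39 ± 0.24 at 48 h (log2, SE), FASN by -1.58 ± 0.19 and -1.22 ± 0.19, and SCD by -1.97 ± 0.55 and -1.68 ± 0.54. ACLY changed by -0.85 ± 0.11 at 7 days with the smallest SE of the 19 (adjusted p = 2.14e-05), and ELOVL6 by -1.26 ± 0.19 and FADS2 by -1.49 ± 0.39. HMGCS1 (-0.92 ± 0.34, adjusted p = 0.0337), IDI1 (-0.99 ± 0.24, 0.0023), the squalene synthase FDFT1 (-0.77 ± 0.20, 0.00317) and NSDHL (-0.52 ± 0.15, 0.00842) were among the 19; at 48 h they were at -0.50, -0.55, -0.43 and -0.21. The role medians were -1.49 for fatty acid, -0.95 for mevalonate, -0.77 for sterol and -0.67 for sensing genes. The call of HMGCS1 did not hold without H3122, without N87 or without PC9, that of HSD17B7 without N87, or that of INSIG1 without PC9. The 9 members not called were PMVK, MVD, LSS, TM7SF2, MSMO1, SC5D, SREBF1, SREBF2 and ACSS2. Tested directly, 7 days against 48 h gave 0 members lower and 0 higher, with 0 and 0% of all genes called in each direction, 0 members at an unadjusted p under 0.05 (761 of all genes) and 0 by DESeq2, which called 26 genes. The members' median difference was -0.25; this does not show that the 2 times were alike.

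Within lines, 27 of 28 members were lower and 0 higher at 7 days in PC9 (35.8 and 34.6% of all genes), and 27 and 0 in N87 (37.5 and 33.5%). In A375 23 were lower and 1 higher (36.6 and 34.1%), in RT112 23 and 2 (37 and 37%), in H3122 22 and 3 (33.8 and 33.3%), and in A549 20 and 5 (38.1 and 36.5%). The change differed between lines for 28 of 28 members (95.6% of all genes).

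SCD at 7 days was at 61.5, 65.8 and 62.2 CPM in PC9 (-4.31 ± 0.05 log2 against DMSO), 57.1, 62.8 and 60.6 in N87 (-3.63 ± 0.05), 586, 607 and 613 in RT112 (-2.02 ± 0.04) and 221, 237 and 260.1 in A549 (-2.21 ± 0.07). In H3122 it was at 491, 346 and 352 CPM, against 69.5, 68.7 and 60.1 at 48 h and 519, 511 and 533 in DMSO. The first of those 3 values is replicate 1, which stood apart from its group; the other two libraries too lie between 48 h and DMSO. HMGCS1 in H3122 was lower at 7 days than at 48 h, at 75.5, 59.1 and 56.5 CPM at 7 days, 161, 164 and 172 at 48 h and 180.3, 171 and 177 in DMSO. SREBF1 rose in H3122 to 1064, 995 and 839.9 CPM at 7 days from 546, 556 and 568 in DMSO (log2 change 0.74 ± 0.08), while it was called lower in the other 5 lines. The greatest change in H3122 at 7 days was that of FADS1, from 113, 108 and 116 CPM in DMSO to 47.97, 28.9 and 32.5 (-1.68 ± 0.12), where replicate 1 again gives the highest value. Without that replicate 23 members were called lower in H3122 and 3 higher. In A549 HMGCS1 was at 97.9, 89.5 and 87.9 CPM at 7 days, below all its DMSO libraries, and MSMO1 at 60.04, 68.4 and 66.6, still above them. MVD, LSS, TM7SF2, MSMO1 and ACSS2 were called higher in A549 at 7 days. In RT112 SQLE was at 34.97, 35.5 and 34.5 CPM at 7 days and CYP51A1 at 37.6, 37.3 and 36.2, below their libraries at 48 h. In PC9 SQLE and CYP51A1 were above their libraries at 48 h, at 48.1, 50.3 and 45.8 and 50.9, 52.2 and 55.3 CPM. INSIG1 in PC9 was at 25.6, 26.01 and 24.5 CPM (-2.52 ± 0.06 against DMSO), a change beyond those of the other 5 lines. In A375 the greatest change was that of STARD4, at 4.45, 5.79 and 4.11 CPM (-2.34 ± 0.14). At 7 days 12.2% of the 12036 genes tested in every line were called lower in all 6. Of the 28 members 14 were: MVK, IDI1, FDPS, SQLE, CYP51A1, NSDHL, EBP, DHCR7, INSIG1, ACLY, FASN, ELOVL6, SCD and FADS1.

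THZ1 alone asks what inhibition of the transcription kinases did without the targeted drug. Across lines 0 of 28 members were called lower and 0 higher (edgeR), where 0.0253 and 0.0589% of all genes were called. At an unadjusted p under 0.05, 8 were lower and 0 higher: INSIG1, STARD4, SREBF1, SREBF2, ACSS2, FASN, SCD and FADS1. Of all genes tested 1356 had an unadjusted p under 0.05 in this edgeR fit. DESeq2 called 2, INSIG1 and SREBF2, where it called 194 of the 11875 genes in either direction. A fit of these 2 arms alone called 6 (CYP51A1, SREBF1, SCD, ACSS2, FADS1 and SREBF2), where it called 693 of all genes in either direction. The smallest adjusted p was that of SREBF2, 0.0907, for a log2 change of -0.66 ± 0.17 (SE); SREBF2 was lower in 6 of 6 lines. SREBF1 was at -0.87 ± 0.27 and lower in 6 of 6, INSIG1 at -1.07 ± 0.31 and lower in 5 of 6, and SCD at -1.20 ± 0.52 and lower in 6 of 6. The median over the members was -0.31, and over the 11 sterol enzymes -0.18 against -0.80 over the 4 sensing genes.

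Within lines the calls under THZ1 were many. In PC9 25 members fell and 0 rose (27.7 and 26.1% of all genes), in A375 21 and 3 (28.9 and 26.5%), and in H3122 15 and 0 (12.3 and 10.8%). In N87, which had the lowest dose, they were 15 and 2 (16.3 and 14.1%), and in RT112 14 and 5 (20.4 and 21%). A549, which had the highest dose, again differed in direction, with 6 lower and 17 higher (21.5 and 25%). The change differed between lines for 28 of 28 members (83.9% of all genes). SCD in PC9 went from 1294, 1272 and 1207 CPM in DMSO to 332, 321 and 324 under THZ1, and in RT112 from 2165, 2223 and 2214 to 796, 771 and 878. INSIG1 in A375 went from 56.3, 58.9 and 53.9 to 19.1, 16.8 and 15.2, and in H3122 from 106, 107 and 101 to 35.4, 39.7 and 36.7, without overlap. The summed level of the 17 mevalonate and sterol enzymes under THZ1 was 57.4% of DMSO in PC9, from 89.9% to 94.1% in N87, A375, H3122 and RT112, and 140.0% in A549. The fatty acid sum was 42.9% in PC9, 57.5% in A375, 58.3% in RT112, 61.2% in H3122, 97.1% in N87 and 102% in A549. In A549 MVK had the greatest change of the members (0.96 ± 0.10). MVK went from 19.5, 20.8 and 18.8 to 33.2, 39.8 and 42.9 CPM there, and FASN from 591, 635 and 654 to 962, 998 and 1049, a line in which the targeted drug lowered FASN. SREBF1, SREBF2 and SCD were the 3 members of 28 called lower in all 6 lines, against 1.67% of the genes tested in every line. SREBF2 under THZ1 was at 102, 119 and 107 CPM in A375, against 253, 242 and 238 in DMSO, and at 241, 243 and 251 in PC9, against 528, 537 and 536. In N87 the SREBF2 groups lay closer, at 501, 527 and 526 and 564, 579 and 596 CPM, and did not overlap. NSDHL was called higher in A375, A549 and RT112 and lower in none of the lines. ELOVL6, which fell in every line under the targeted drug, was called lower under THZ1 in A375 and higher in RT112; in A375 it was at 46.8, 41.97 and 46.3 CPM against 59.4, 62.6 and 53.2 in DMSO; both comparisons use the same DMSO libraries.

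Adding THZ1 to the targeted drug asks what the combination did beyond the targeted drug at 48 h. This comparison shares the targeted-drug libraries with the first one, so the changes of the 2 comparisons are not independent, and levels in each arm are given. Across lines 1 member was called lower and 0 higher, against 4.34 and 3.7% of all genes tested. It was SREBF1, at -0.91 ± 0.27 (log2, SE, adjusted p = 0.0384), lower in 6 of 6 lines. That call was lost without A375, without N87, without PC9 or without RT112, without TMM scaling, under 2 other filters on low values and in a fit of these 2 arms alone. SREBF2 was at -0.44 ± 0.17 (adjusted p = 0.0997) and INSIG1 at -0.76 ± 0.31 (0.128), each lower in 6 of 6 lines. NSDHL, a sterol dehydrogenase, was at 0.36 ± 0.15 and ACLY at 0.23 ± 0.11, each higher in 6 of 6 lines (adjusted p = 0.142 and 0.21). The comparison of THZ1 with DMSO uses none of these libraries, and in it SREBF1, SREBF2 and INSIG1 were at -0.87, -0.66 and -1.07.

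SREBF1 in RT112 was at 854, 896 and 913 CPM in DMSO, 988, 1014 and 984 under BGJ398, 535, 545 and 568 under THZ1 and 297, 319 and 335 in the combination. In PC9 the same order gave 449.6, 473 and 445, then 232, 222 and 222, then 215, 212 and 222, then 102, 104 and 105 CPM. In both lines the combination libraries were below all others. In A375 the combination (191, 174 and 191 CPM) overlapped THZ1 alone (171, 194 and 188) and was below vemurafenib alone (378, 367 and 388). INSIG1 in N87 was at 26.7, 28.8 and 25.6 CPM under lapatinib, 32.4, 32.4 and 31.8 under THZ1 and 11, 11.6 and 13.3 in the combination. INSIG1 in RT112 was lower in the combination, at 45.97, 43.05 and 37.96 CPM, than under BGJ398 at 97.4, 64.2 and 67.6; the first value of the latter is replicate 1, one of the libraries that stood apart.

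**Figure D5:**
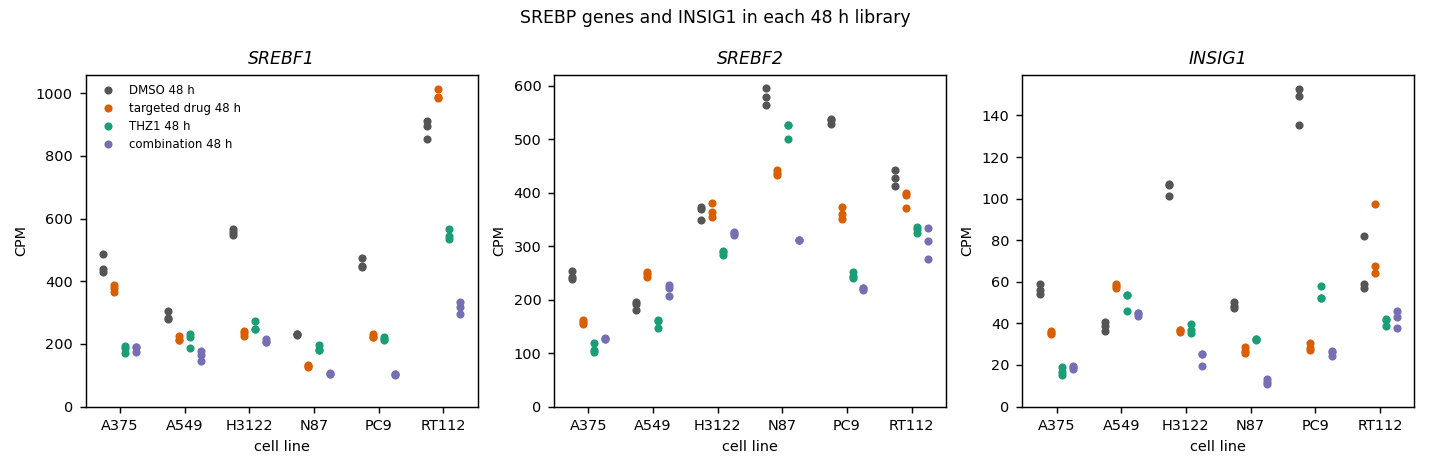
CPM of SREBF1, SREBF2 and INSIG1 in each 48 h library, by cell line and arm. For SREBF1 the combination libraries of RT112 sit at 297, 319 and 335 CPM, below the 3 other arms of that line.

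The summed level of the 17 mevalonate and sterol enzymes was higher with THZ1 added than without it in 4 lines and lower in N87 and A549. It was 103% of DMSO in A375 in the combination and 65.2% under vemurafenib alone. In RT112 it was 98.6% and 78.6%, and in PC9 50.2% and 34.8%. In N87 it was 36.9% in the combination and 42.4% under lapatinib, in H3122 84.9% and 80.2%, and in A549 146% and 168%. HSD17B7 in PC9 was at 10.8, 12.3 and 12.7 CPM in the combination, 3.6, 3.42 and 3.37 under erlotinib and 20.2, 20.1 and 18.7 in DMSO. In A375 it was at 30.1, 32.5 and 28.6, 7.56, 11.2 and 9.96 and 12.6, 13.97 and 13.1, so that the combination libraries of A375 were above DMSO. MSMO1 in PC9 was at 143, 158 and 141 CPM in the combination, between erlotinib (46.3, 45.7 and 49.3) and DMSO (185, 179 and 172). CYP51A1 in PC9 was likewise between its groups named above, at 98.9, 109 and 95.9 CPM. SQLE in RT112 was at 116, 113 and 109.9 CPM in the combination, which overlapped its DMSO libraries (123, 114 and 112), and at 55.9, 57.6 and 56.9 under BGJ398. SQLE in N87 went the other way, with 73.7, 73.96 and 73.6 CPM in the combination and 96.4, 103 and 93.7 under lapatinib.

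The 7 fatty acid genes summed to 24.2% of DMSO in the combination in PC9, 37.7% in N87, 39.0% in RT112, 40.6% in H3122, 51.7% in A375 and 69.4% in A549. SCD moved apart between lines. In PC9 it was at 269, 274 and 259 CPM in the combination and 114, 124 and 131 under erlotinib, and in RT112 at 563, 613 and 599 and 1168, 1319 and 1345 under BGJ398, so that it was higher in the combination in the first line and lower in the second. FADS2 in RT112 was at 10.1, 9.06 and 9.51 CPM in the combination, 4.603, 5.18 and 4.47 under THZ1, 1.62, 1.95 and 2.06 under BGJ398 and 2.22, 1.79 and 1.32 in DMSO, low levels whose groups did not overlap between the combination and the other 3 arms. ACLY was called higher in the combination in 5 lines. In A549 it was at 625, 611 and 599.5 CPM in the combination and 525, 528 and 516 under GSK1120212, and both were below DMSO (760.3, 789.7 and 791).

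By calls, in A375 7 members were lower and 19 higher than under vemurafenib (33.4 and 35.1% of all genes), in PC9 8 and 17 (34.9 and 33.4%), and in RT112 8 and 18 (31.4 and 32.8%). In N87 17 were lower and 5 higher (28.8 and 27%), in A549 17 and 3 (20.6 and 20.3%), and in H3122 7 and 4 (14.3 and 15.3%). The change differed between lines for 28 of 28 members (92.4% of all genes). INSIG1 and SREBF2 were the 2 members of 28 called lower in all 6 lines, against 1.76% of the genes tested in every line. TM7SF2 went both ways: in A375 it was at 30.9, 34.9 and 34.7 CPM under vemurafenib and 16.9, 16.9 and 19.6 in the combination, and in A549 at 13.99, 13.1 and 10.6 under GSK1120212 and 20.3, 22.6 and 21.4 in the combination. The greatest change of the members in N87 was that of FADS1 (-1.47 ± 0.20). FADS1 in N87 was at 4.59, 5.33 and 4.74 CPM under lapatinib and 1.36, 2.02 and 2.14 in the combination, levels of a few CPM.

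Other genes of lipid metabolism were described by lists. They are background to the members and were chosen from textbook roles, with earlier results of these data known. Of 13 tested genes (17 listed) of SREBP processing and other SREBP targets, 4 were called lower and 2 higher at 48 h of the targeted drug, against 18.5 and 18.6% of all genes. These shares hold for each list at 48 h, and with so few genes a list no count is read as above or below them. Those lower included ACAT2, a cytosolic thiolase at the start of the pathway (-1.25 ± 0.30 log2, SE, adjusted p = 0.00291), and TMEM97, a sterol-binding membrane protein (-1.01 ± 0.30, 0.0107). The SREBP proteases went apart, with MBTPS1 higher (0.42 ± 0.11) and MBTPS2 lower (-0.35 ± 0.14), and INSIG2, a relative of INSIG1, was higher (0.42 ± 0.16). Of 8 genes of LXR, the oxysterol receptor, and cholesterol efflux, 2 were higher and 0 lower, SMPDL3A (1.41 ± 0.26, 0.000494) and NR1H2 (0.33 ± 0.13, 0.0444). Among the tested genes of fatty acid oxidation PPARA (0.86 ± 0.26), ACADVL (0.66 ± 0.16) and HADHB (0.47 ± 0.12) were higher. Of 5 tested genes of lipid droplets and triglycerides, 1 was higher (AGPAT2, 0.51 ± 0.16).

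At 7 days 3 of the 13 SREBP genes were lower, among them ACAT2 (-1.82 ± 0.30) and TMEM97 (-1.19 ± 0.30), and 2 higher, against 20.3 and 22.9% of all genes. Of the 8 LXR and efflux genes 3 were higher, MYLIP (1.22 ± 0.33), SMPDL3A (1.19 ± 0.26) and NR1H2 (0.78 ± 0.13). Of the oxidation genes PPARA (0.72 ± 0.26) and ACADVL (0.64 ± 0.16) were higher and CPT2 (-0.32 ± 0.13) was lower. Of 5 genes of cholesterol storage and lysosomal release, LIPA, the lysosomal lipase, was higher (0.57 ± 0.20), and AGPAT2 was again higher (0.64 ± 0.16). In the combination NR1H2 was the gene of these lists that was called, lower than under the targeted drug (-0.41 ± 0.13, adjusted p = 0.0449).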

How the data were processed

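Per the submitters' processing notes, the authors aligned reads to hg19 with Bowtie2 2.2.1 and deposited expected counts per gene from RSEM 1.2.12; their gene annotation: not given in the sources used here. RSEM divides reads shared between genes, so 7.83 to 13.75% of values per library are not whole numbers, and genes with close copies are uncertain. Counts were rounded. The 47111 of 53893 IDs with a symbol and the 6782 without (1.26% of counts) entered library sizes. CPM are counts scaled to library size alone, and CPM per kilobase uses GENCODE exon lengths. TMM scaling was used in the main edgeR fits only. edgeR 4.0.16 (R 4.3.3) fitted the 30 sums of line and arm with a line term, and each line's 15 libraries after filterByExpr; p-values were adjusted by Benjamini-Hochberg and called under 0.05. The difference between lines was tested in 1 fit of the 90 libraries. DESeq2 1.42.0 was an alternative. The fits were tested on simulated data. Promoter sequences are from RefSeq (GRCh38.p14), a different build from that of the counts, and SQLE, FDFT1 and FASN had none.

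The members and lists were chosen with earlier results of these data known. Values per library were planned for members called across lines in at least 1 comparison and for the member of greatest change in each line and comparison; those shown of LSS, ACSS2, MVD, PMVK, SC5D and SREBF2, among others, were chosen after their values were seen. Same-numbered libraries met no rule for pairing: in 7 comparisons with 3 shared numbers, 0 had every correlation of deviations over 0.1. In RT112, where groups share only 2 numbers, both correlations were over 0.1 in each comparison but that of THZ1 with DMSO (0.492 and 0.297 at 48 h), too few pairs for the rule. Not every result of the list of fatty acid oxidation genes is reported here.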

Additional observations from a re-analysis of the deposited data

Results flagged for a closer look

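The change of each member was compared over the 6 lines in 112 tests for a line far from the rest, and 2 were marked, where chance marks about 1 in 20. FADS2, the delta-6 desaturase, had a log2 change of 2.39 in RT112 in the combination against BGJ398 alone, while the other 5 lines ran from -0.49 to 0.48. Its level there was 10.1, 9.06 and 9.51 CPM in the combination and 1.62, 1.95 and 2.06 under BGJ398. INSIG1, the sterol sensor, had a log2 change of -2.52 in PC9 at 7 days against DMSO, while the other lines ran from -1.23 to -0.50.

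The change differed between lines for 28 of 28 members at 48 h of the targeted drug, for 28 under THZ1, for 28 in the combination and for 28 at 7 days (F test over lines in edgeR on 90 libraries, adjusted p under 0.05). Most of all genes passed the same test, so this does not set the members apart. Lines differ in drug, dose and medium, and these cannot be told apart.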

How the results depend on the processing

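Of 1193 values recomputed for 122 results, 1110 kept their direction and their side of the threshold or stayed within 1.5 times the count, 48 kept the direction and lost the call, 35 moved and 0 reversed. Single members lost calls in fits that left out a line or the libraries that stood apart, used 2 arms alone, or changed the scaling or filter. They were MVK, HSD17B7, INSIG1, SQLE, FADS2 and SCD at 48 h, HMGCS1, HSD17B7 and INSIG1 at 7 days, and SREBF1 in the combination. The cause was not tested.

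Across lines, leaving out 1 line at a time gave 9 to 20 members lower at 48 h (9 without N87, 9 without PC9), 0 to 1 higher (1 without H3122), 0 to 1 lower in the combination and 0 to 1 higher there (1 without A549). At 48 h these fits called from 3278 of 12062 genes (without RT112) to 4544 of 12084 (without H3122) in either direction. In the combination they called from 214 of 12024 (without PC9) to 1196 of 12207 (without A549). Under THZ1, where all 30 sums gave 0 lower, DESeq2 gave 2 and a fit of the 2 arms alone 6. Of the 11875 genes tested these fits called 194 and 693 in either direction. In the combination the count of 1 lower was 0 with library size alone, 0 with filterByExpr and 0 with no filter. Of all genes these fits called 1019 of 11875, 877 of 18930 and 438 of 37519 in either direction. Within lines, the 1 member called higher in A375 at 7 days became 2 with RLE size factors and 2 with a replicate block. The 2 called higher in N87 under THZ1 became 1 with DESeq2, 1 with RLE, 0 with no filter, 1 with a replicate block and 0 to 1 without a library. The 5 called higher in N87 in the combination became 3 with DESeq2, 2 with no filter and 1 to 5 without a library. Leaving out a library gave 1 to 2 higher in A375 at 48 h, 1 to 3 higher in H3122 at 48 h, and 3 to 8 lower and 1 to 6 higher in H3122 in the combination. Other fits with the replicate block, 70 of 72, changed no call or count by over 1.5 times. In RT112, whose same-numbered libraries did deviate together in 3 of 4 comparisons, the block gave 18 members lower at 48 h (17 without it), 19 higher in the combination (18) and 23 lower at 7 days (23).

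The filter of filterByExpr moved the median of all genes at 7 days to 0.13. The stricter sterol element is in 2.78% of the members' promoter windows and the looser in 13.9%. With 3 libraries a group, levels of a few CPM (such as FADS1 and FADS2 in N87 and RT112, and STARD4 in RT112) carry the largest counting error. With 1 drug and dose a line, no vehicle at 7 days and no spike-in, dose, time and total RNA cannot be separated from drug.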
